A study of Mus musculus with 9 samples.

Results

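The 6 Wnt ligand genes Wnt7b, Wnt4, Wnt9a, Wnt10a, Wnt7a and Wnt5a were described in RNA of the mouse medial prefrontal cortex. They were taken by gene symbol from the 35125 genes with an NCBI identifier in the deposited table, and 6 of 6 were found. They were chosen by their FPKM in these libraries, as ligands expressed in the tissue and with Wnt7a higher in stressed than in control cortex. For these 6 genes the comparison of stress with control is therefore given as values with no test. The 9 polyA RNA libraries form 3 groups of 3. The running model is labelled as exercise, and the series text places running in mice exposed to chronic unpredictable stress. The model of chronic unpredictable stress (CUS) is labelled as stressed, and the control as not stressed. Every library carries the terms 4 week and week 8, which are not explained further. Strain, sex, age and the start of running are not given in the labels, nor is it said whether a library is 1 animal or a pool, so p-values measure the spread between libraries, which may be partly technical.

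Wnt proteins are secreted, lipid-modified signals. Porcn attaches the lipid and Wls carries the ligand to the cell surface, where it binds a Frizzled receptor together with Lrp5 or Lrp6 and stabilises beta-catenin, or engages branches that shape the cytoskeleton and cell polarity. Wnt7a and Wnt7b are close relatives that signal to brain endothelium with the help of Reck and Adgra2, and Wnt7a is known in mice to promote the assembly of synapses. Wnt5a is the classic ligand of the branches that do not use beta-catenin.

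Wnt7a and Wnt4 were the members whose 6 running and CUS libraries all lay above the 3 control libraries, and their promoters are shown for that reason. Each window of 300 bases spans the annotated start, most of it upstream, and is read 5′ to 3′ on the strand of the gene, from RefSeq on GRCm38.p6. Wnt7a lies on the minus strand, with its window at chr6:91411304-91411603, and Wnt4 on the plus strand, with its window at chr4:137277385-137277684. Capitals mark the GC box, GGGCGG on either strand, a core bound by Sp-family factors.
Wnt7a: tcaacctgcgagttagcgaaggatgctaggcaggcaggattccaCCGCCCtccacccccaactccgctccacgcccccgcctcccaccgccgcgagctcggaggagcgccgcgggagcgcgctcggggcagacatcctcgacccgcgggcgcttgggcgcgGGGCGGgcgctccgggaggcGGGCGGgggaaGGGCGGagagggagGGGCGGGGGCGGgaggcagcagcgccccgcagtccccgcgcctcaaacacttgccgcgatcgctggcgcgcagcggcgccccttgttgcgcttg
Wnt4: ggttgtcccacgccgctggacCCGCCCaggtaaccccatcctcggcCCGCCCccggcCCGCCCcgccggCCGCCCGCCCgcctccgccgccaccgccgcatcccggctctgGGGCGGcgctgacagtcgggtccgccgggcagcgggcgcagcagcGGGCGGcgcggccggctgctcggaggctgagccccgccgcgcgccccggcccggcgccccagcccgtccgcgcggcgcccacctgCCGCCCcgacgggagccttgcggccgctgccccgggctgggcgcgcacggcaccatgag
Of the 6 members, 3 had a promoter in the table, and the one not shown is that of Wnt9a. GC bases made up 76.0% of the Wnt7a window, 84.3% of the Wnt4 window and 83.3% of the Wnt9a window, where the median of 32851 mouse promoters was 52.7%. The Wnt7a window held 6 GC boxes, the Wnt4 window 8 and the Wnt9a window 5, with overlapping matches counted separately. At least 1 GC box was present in 35.7% of promoters, at least as many as in Wnt7a in 1.35% and at least as many as in Wnt4 in 0.26%. The letters ATCAAAG, a core of TCF and LEF sites, were absent from all 3 windows on both strands and occurred in 3.7% of promoters. CCAAT was likewise absent from the 3 windows and occurred in 37.4% of promoters.

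Levels are FPKM, fragments scaled to transcript length and library size, as the authors deposited them, so levels of different genes can be set side by side. Wnt7b was the leading ligand, with a mean of 19.6 FPKM over the 9 libraries, and Wnt4 followed at 9.83 FPKM. Wnt9a at 6.51 FPKM, Wnt10a at 5.59, Wnt7a at 2.36 and Wnt5a at 1.78 completed the order. Wnt7b exceeded Wnt4, Wnt4 exceeded Wnt9a, and Wnt10a exceeded Wnt7a in 9 of 9 libraries. Wnt9a and Wnt10a had overlapping ranges and kept their order in 7 of 9 libraries. Wnt10a was above Wnt9a in the mean of the running group, at 6.34 and 6.16 FPKM, with overlapping values. Wnt7a and Wnt5a, the lowest members, kept their order in 8 of 9 libraries. In running cortex they averaged 2.45 and 1.88 FPKM with overlapping values, in CUS cortex 2.75 and 1.67 with none overlapping, and in controls 1.89 and 1.80 with overlapping values.

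**Figure D1:**
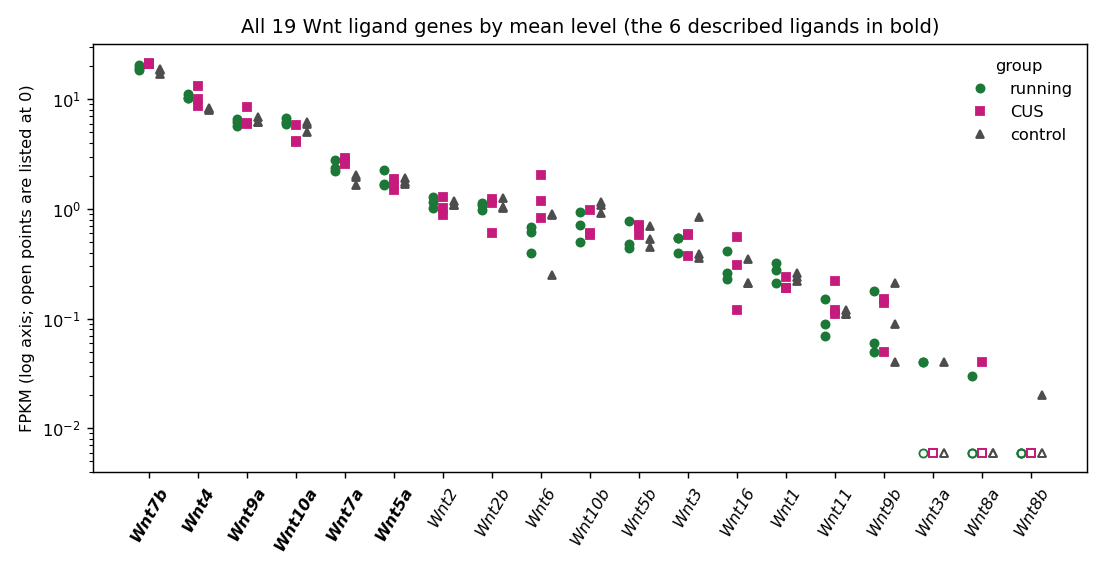
FPKM of the 19 Wnt ligand genes on a log axis, with 1 point per library and the groups running, CUS and control side by side for each gene. The 6 described ligands, in bold, stand at the left at 1.49 FPKM or more in every library, and the other ligands lie mostly below 1.3 FPKM.

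The other 13 ligands of the family had lower mean levels. The choice of the 6 states no threshold. The lowest member, Wnt5a, ranged from 1.49 to 2.29 FPKM, and the highest of the others by mean, Wnt2, from 0.88 to 1.30 FPKM. Wnt6 reached 2.04 FPKM in CUS replicate 3 and stayed at or below 1.19 FPKM in the other libraries. Wnt3a, Wnt8a and Wnt8b were listed at 0 in 6, 7 and 8 of the 9 libraries. The 6 members carried 88.8 to 90.3% of the summed FPKM of the 19 ligands in running cortex, 87.8 to 89.8% in CUS cortex and 87.7 to 88.3% in controls. Summed over the 6 members the level was 46.9 ± 1.63 FPKM in running, 47.8 ± 2.56 under CUS and 42.3 ± 0.947 in controls (SD, n = 3 each). The lowest running and CUS sums, 45.5 and 46.0 FPKM, were above the highest control sum of 43.0. The sums include Wnt7a and the control libraries used in the choice of members, so this separation is a description only. Of all genes, 22.4% had no overlap between running and control and 19.7% between CUS and control. Wnt7b alone made up 35.9 to 38.4% of the sum of the 19 ligands in running, 36.6 to 41.6% under CUS and 36.5 to 39.0% in controls.

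The libraries were alike in depth. The deposited values are FPKM and not counts, but in short genes of a single transcript the low FPKM values step by what 1 fragment is worth. With an assumed fragment length of 200 bases those steps correspond to 21600000 to 25040000 fragments per library. On that estimate and the longest annotated transcript, a library held 108 to 197 fragments of Wnt7a, a counting error of 7.1 to 9.6%. For Wnt7b the estimate was 1195 to 1659 fragments and an error of 2.5 to 2.9%, and for Wnt10a 211 to 352 fragments and 5.3 to 6.9%. CUS replicate 3 stood apart from the others, with a summed FPKM of 423257 against 370441 to 393663 and a mean correlation of log2 values with the other libraries of 0.987 against 0.990 to 0.993. By group, the summed FPKM was 370441 to 378824 in running, 386366 to 423257 in CUS and 377545 to 390537 in controls. Running and CUS did not overlap in this sum, so their comparison on the FPKM scale carries an offset. Rescaling to TPM, used as an alternative, gives the libraries equal sums over genes with an NCBI identifier. All markers of excitatory and inhibitory cortical neurons were above 0 in each library, with summed levels of 1746 to 1911 and 750 to 961 FPKM. The markers of choroid plexus summed to 216.1 FPKM in control replicate 3 and to 6.9 to 41.2 FPKM elsewhere.

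Gene positions are those of the same assembly. Wnt7a lies on the minus strand at chr6:91363981-91411353. It had 2.21, 2.79 and 2.35 FPKM in running libraries 1 to 3, 2.6, 2.9 and 2.75 FPKM in CUS libraries, and 1.95, 2.04 and 1.67 FPKM in control libraries. All 3 CUS values and all 3 running values were above all 3 control values, while running and CUS overlapped. CUS averaged 2.75 ± 0.150 FPKM and controls 1.89 ± 0.193 (SD, n = 3 each), a ratio of 1.46 and a log2 difference of 0.45 (SE 0.104) on the log2(FPKM + 0.5) scale used throughout. This difference is what placed Wnt7a among the members. Running averaged 2.45 ± 0.303 FPKM, which was 0.14 below CUS and 0.30 above control on the log2 scale. Running replicate 2, at 2.79 FPKM, was the running library inside the range of the CUS values, and the other 2 lay between the control and CUS ranges. These running differences share their CUS or control libraries with the comparison that chose Wnt7a and were not tested. Without any 1 library the CUS minus control difference stayed between 0.38 and 0.49. In bulk tissue, fewer or more cells of a type and less or more RNA per cell cannot be told apart. Markers of excitatory neurons summed to 1746 to 1819 FPKM in CUS and 1781 to 1848 in controls, and those of inhibitory neurons to 843.5 to 961.4 FPKM in CUS and 780.7 to 959.3 in controls, with overlap in each. Astrocyte markers summed to 551.9 to 665.0 FPKM in CUS and 570.9 to 648.3 in controls. Each of the 8 excitatory, 7 inhibitory and 7 astrocyte markers was above 0 in all 9 libraries, and their part in the result was not tested.

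Wnt7b, the close relative of Wnt7a, lies on the minus strand at chr15:85535437-85581821. It had 19.29, 18.41 and 20.71 FPKM in running libraries, 21.02, 21.31 and 20.99 FPKM in CUS libraries, and 18.50, 18.98 and 17.13 FPKM in control libraries. On the deposited FPKM scale the CUS values were tightly grouped and above every running and every control value, while running and control overlapped. CUS averaged 21.1 ± 0.177 FPKM and controls 18.2 ± 0.960, a log2 difference of 0.21 (SE 0.0625), given without a test since the contrast is the one behind the choice of members. Running averaged 19.5 ± 1.16 FPKM, which was 0.12 lower than CUS as a log2 difference (-0.12, SE 0.0625, limma adjusted p = 0.286) and differed from control by 0.09 (limma adjusted p = 0.591). Neither passed the threshold of an adjusted p under 0.05. The difference of running from CUS was -0.07 with quantile normalization and -0.016 after rescaling to TPM. That of CUS from control was 0.17 with quantile normalization and 0.15 after rescaling to TPM. Whether the CUS values stay grouped and apart after rescaling was not examined. The ratio of Wnt7b to Wnt7a was 6.60 to 8.81 in running, 7.35 to 8.08 in CUS and 9.30 to 10.3 in controls. It contains the Wnt7a values used in the choice of members, so the separation of controls is a description only. Wnt7b shares exon bases with AU022754, a gene on the opposite strand, and the library protocol does not mark strand. AU022754 was listed at 0 in all 9 libraries, and the other 5 members share no exon bases with another annotated gene.

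Wnt4, a ligand best known for its roles in kidney and gonad development, lies on the plus strand at chr4:137277635-137299501. It had 10.22, 10.32 and 11.10 FPKM in running libraries, 8.77, 10.15 and 13.22 FPKM in CUS libraries, and 8.24, 8.36 and 8.06 FPKM in control libraries. The control values spanned 0.3 FPKM and lay below all 6 of the others, whereas the CUS values were spread widely around those of running. Running averaged 10.5 ± 0.482 FPKM and controls 8.22 ± 0.151, a log2 difference of 0.34 (SE 0.117, unadjusted p = 0.0147 and adjusted p = 0.310 in limma). It did not pass after adjustment, and stayed between 0.30 and 0.36 when any 1 library was left out. CUS averaged 10.7 ± 2.28 FPKM, 0.34 above control on the log2 scale. CUS replicate 3, the library that stood apart, had the highest Wnt4, and without it the CUS minus control difference was 0.19. Running and CUS differed by less than 0.01 on the log2 scale (-0.0032, SE 0.117, limma adjusted p = 0.991). That difference took the other sign in 6 of 18 alternatives, among them without CUS replicate 3, at 0.15, and after rescaling to TPM, at 0.10. The 7 oligodendrocyte markers, all above 0 in each library, summed to 541.6 to 613.1 FPKM in running, 462.4 to 683.6 under CUS and 613.4 to 1147.1 in controls. Running and control narrowly missed overlapping, CUS and control overlapped, and the value of 1147.1 was control replicate 3. The marker sums of the other cell types overlapped between running and control. The part of these markers in the Wnt4 result was not tested.

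Wnt10a, which signals through beta-catenin and is known for tooth and skin development, lies on the plus strand at chr1:74792019-74804176. It had 6.79, 6.03 and 6.19 FPKM in running libraries, 4.22, 4.07 and 5.81 FPKM in CUS libraries, and 5.95, 5.03 and 6.18 FPKM in control libraries. Every running value was above every CUS value, and the controls overlapped with each. Running averaged 6.34 ± 0.401 FPKM and CUS 4.70 ± 0.964, a ratio of 1.35 and a log2 difference of 0.41 (SE 0.124, unadjusted p = 0.00744 and adjusted p = 0.103 in limma). The difference did not pass at equal weights and passed with library quality weights, at 0.51 (limma adjusted p = 0.0133), where 2178 of 14013 genes were called. Against control, running had a log2 difference of 0.14 (limma adjusted p = 0.699), and CUS was 0.27 below control, untested. CUS replicate 3 was the CUS library nearest to the other groups. Between the same groups the 8 excitatory neuron markers summed to 1823 to 1911 FPKM in running and 1746 to 1819 in CUS. The 7 inhibitory neuron markers summed to 750.2 to 817.2 FPKM in running and 843.5 to 961.4 in CUS, and the 6 microglial markers to 148.5 to 160.0 FPKM in running and 160.7 to 191.2 in CUS. All of these markers were above 0 in each library, the 3 sums did not overlap between running and CUS, and their part in the result was not tested. The sums for astrocytes, oligodendrocytes, their precursors, endothelium, mural cells, meninges, choroid plexus and striatum overlapped between these groups. Of all genes, 24.9% had no overlap between running and CUS.

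Wnt9a, a ligand studied in joint and blood development, lies on the plus strand at chr11:59306849-59333552. It had 6.18, 5.68 and 6.63 FPKM in running libraries, 8.62, 5.95 and 6.12 FPKM in CUS libraries, and 6.26, 6.91 and 6.25 FPKM in control libraries. The 3 groups overlapped, and CUS replicate 1 was the only library above 7 FPKM. The log2 difference of running was -0.13 from CUS (SE 0.123, limma adjusted p = 0.534) and -0.07 from control (limma adjusted p = 0.864). Without CUS replicate 1 the difference from CUS was 0.026, and that of CUS from control, 0.07 with all libraries, was -0.09. Wnt5a lies on the plus strand at chr14:28504543-28527448. It had 1.67, 2.29 and 1.69 FPKM in running libraries, 1.49, 1.64 and 1.87 FPKM in CUS libraries, and 1.78, 1.69 and 1.94 FPKM in control libraries. The groups overlapped here too, and running replicate 2 was the highest library. The log2 difference of running was 0.13 from CUS (SE 0.121, limma adjusted p = 0.538) and 0.04 from control (limma adjusted p = 0.924), and without running replicate 2 these were 0.013 and -0.078.

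**Figure D2:**
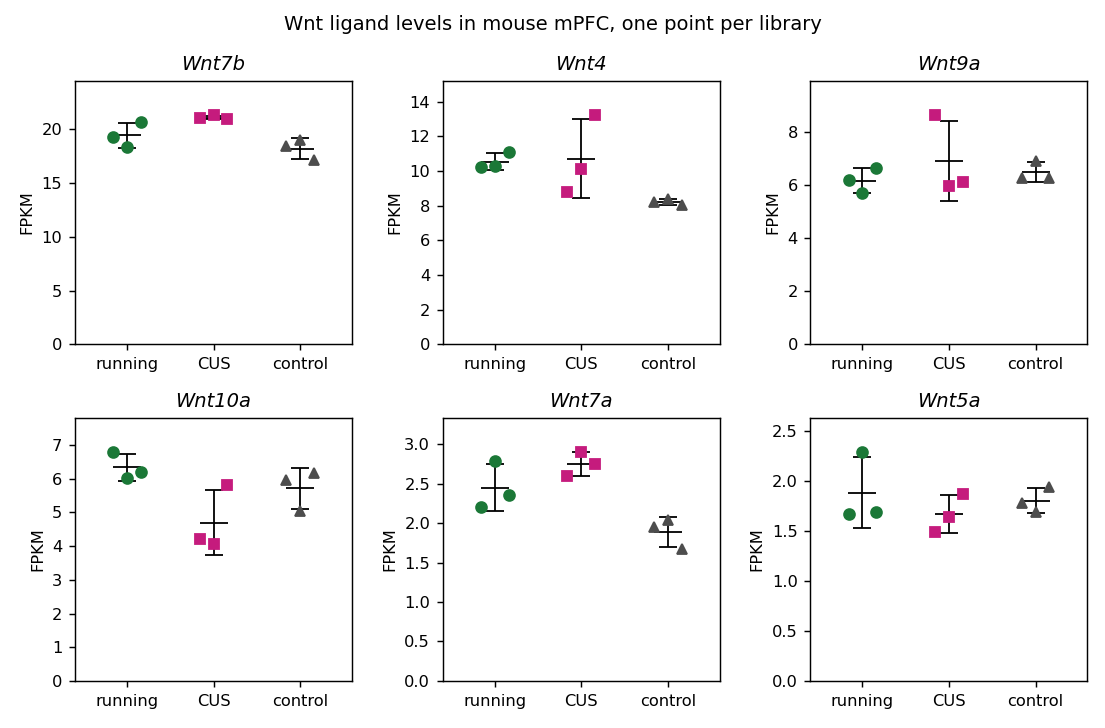
FPKM of the 6 ligands in each library, with groups running, CUS and control from left to right, axes from 0, a horizontal mark at the mean and bars of 1 SD (n = 3). The 3 control libraries of Wnt7a and of Wnt4 sit below all others, the 3 CUS libraries of Wnt7b sit together at 20.99 to 21.31 FPKM, and the running libraries of Wnt10a sit above its CUS libraries.

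Of the 5 members tested, Wnt7a being left out, none was called between running and CUS or between running and control at a limma adjusted p under 0.05. For running against CUS, 0.00714% of the 14013 genes tested were called, and for running against control 0.0214%. Running and CUS did not overlap for 2 members, Wnt10a higher and Wnt7b lower, where 24.9% of all genes had no overlap, 8.99% higher and 15.9% lower. Running and control did not overlap for Wnt4, which was higher, among the 5 members tested, where 22.4% of all genes had no overlap, 10.5% higher and 11.9% lower. Wnt7a did not overlap between these groups either, and nothing is read from that, since its control values were used in the choice. CUS and control did not overlap for Wnt7a, Wnt7b and Wnt4, all higher, where the share of all genes was 19.7%, 12.1% higher and 7.6% lower. That contrast was used in the choice too, and its count is a description. The median log2 difference over the 6 members was -0.06 for running against CUS, 0.12 for running against control and 0.14 for CUS against control. Over all genes tested it was -0.03, -0.02 and 0.02. For running against CUS the members' median was above 0 under 3 of 18 alternatives, at 0.04 after rescaling to TPM, 0.04 with library quality weights and 0.02 without CUS replicate 3. Under TPM the median of all genes was 0.06, so the members' median was below it there, as it was without the rescaling. With library quality weights and without CUS replicate 3 the median of all genes was -0.04 and -0.03, so the members' median was above it. The members' median was also above it without running replicate 1 (-0.0335 against -0.0354) and without running replicate 2 (-0.0327 against -0.0422).

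**Figure D3:**
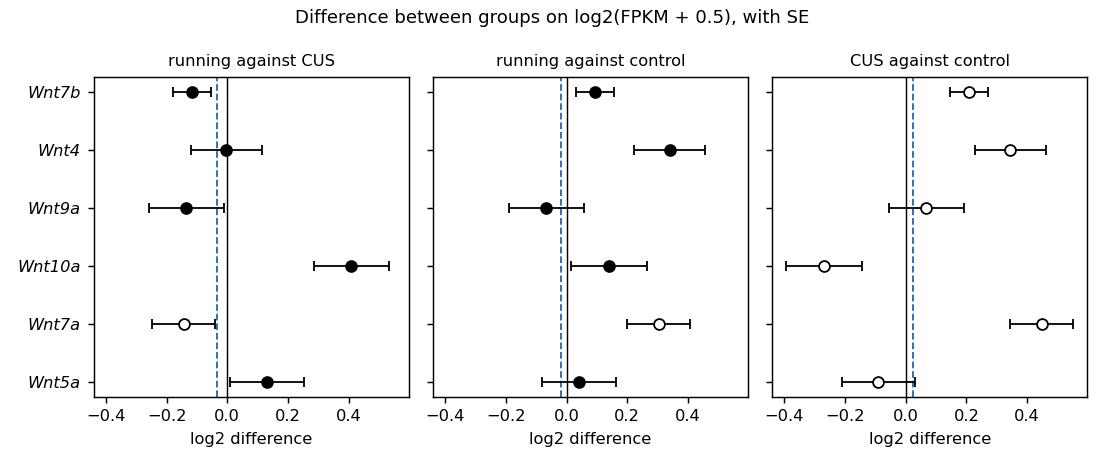
Log2 difference of each ligand between groups (horizontal axis, log2(FPKM + 0.5)), with bars of 1 SE, for running against CUS, running against control and CUS against control. Filled points were tested, Wnt7a and all points of CUS against control are open and untested, and the dashed line is the median of all 14013 genes. Wnt10a stands highest in running against CUS at 0.41, and Wnt7a and Wnt4 are highest in both comparisons with control.

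The members did not vary as 1 block over the 9 libraries. As a description of these libraries, which share their group structure, Pearson correlations of log2 values ran from -0.70 for Wnt5a with Wnt9a to 0.75 for Wnt7a with Wnt7b, with 0.69 for Wnt4 with Wnt7a. Wnt10a had values of -0.45 with Wnt7a and -0.55 with Wnt7b. Among 12399 genes with a mean of at least 1 FPKM, those most like Wnt7a over the 9 libraries were Adra2c (r = 0.967), Uhrf2 (r = 0.947) and Ak4 (r = 0.945). Adra2c, an alpha-2 adrenergic receptor, averaged 5.87 FPKM in running, 6.38 under CUS and 5.38 in controls. For Wnt4 they were Me1 (r = 0.980), Amd1 (r = 0.964) and Dnajb4 (r = 0.963), and for Wnt7b Ube2j1 (r = 0.948), Gpd1l (r = 0.941) and Slc39a6 (r = 0.921). The genes most like Wnt10a were Klf9 (r = 0.939), Pde4c (r = 0.921) and Cbln4 (r = 0.915). Klf9, a transcription factor induced by glucocorticoids, averaged 64.2 FPKM in running, 52.3 under CUS and 57.9 in controls. For Wnt5a they were Tcf7l2 (r = 0.944), Ivns1abp (r = 0.939) and Zdbf2 (r = 0.916). With 9 libraries and this many genes, values of this size were reached for each of these 5 ligands.

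The other genes of the pathway were taken from 9 lists of 91 genes, of which 72 passed the filter on low values. At a limma adjusted p under 0.05, none of the 72 was called in running against CUS, running against control or CUS against control. Of all genes, 0.00714% were called in the last of these. At an unadjusted p under 0.05 there were 11 higher and 1 lower for running against CUS, 4 higher and 5 lower for running against control, and 2 higher and 6 lower for CUS against control. Lgr5 is among the higher genes in both running comparisons, and it passed the filter only through its running libraries. Nothing is read from its place there, and the counts and shares of the pathway genes in this paragraph include it. Over the 72 genes, 39 were above 0 and 33 below in running against CUS, 38 and 34 in running against control, and 25 and 47 in CUS against control. After rescaling to TPM, which tested 79 of them, the splits were 60 and 19, 49 and 30, and 17 and 62. The rescaling moved the median of all genes as well, to 0.06 for running against CUS, 0.01 for running against control and -0.04 for CUS against control, against -0.03, -0.02 and 0.02 without it. Without it, 42.2%, 43.8% and 55.9% of all genes were above 0 in these comparisons. Those shares are no background for the rescaled splits, whose matching shares are not given. The genes under an unadjusted p of 0.05 made up 16.7%, 12.5% and 11.1% of the 72 in these comparisons, against 23.5%, 11.6% and 14.7% of all genes. Of all genes, 7.74% were higher and 15.7% lower at this p for running against CUS, 5.15% higher and 6.47% lower for running against control, and 8.9% higher and 5.79% lower for CUS against control. Without CUS replicate 2, 4 of the 72 were called in running against CUS, Ccnd1, Fzd4, Prickle2 and Daam2, all higher, where 1535 of 13977 genes were called. With library quality weights 8 were called, 6 higher and 2 lower, the lower ones being Reck and Apcdd1, the second of them named after its values were seen.

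Among the other ligands 6 of 13 passed the filter. Wnt6 had 0.40, 0.62 and 0.68 FPKM in running, 1.19, 0.83 and 2.04 under CUS and 0.90, 0.89 and 0.25 in controls, a log2 difference between running and CUS of -0.75 (SE 0.276, limma adjusted p = 0.143). Markers of meninges summed to 53.7 FPKM in CUS replicate 3, the highest of the 9 libraries, and over the 6 markers, none of them at 0, the range was 22 to 44.6 FPKM in running, 29.3 to 53.7 under CUS and 26.3 to 41.2 in controls. Their part in the Wnt6 values was not tested. Porcn, the acyltransferase of Wnt proteins, had 36.2 ± 0.980 FPKM in running, 39.0 ± 1.97 under CUS and 36.4 ± 1.18 in controls. Wls, the carrier of Wnt proteins, had 11.2 ± 0.727, 12.01 ± 1.70 and 13.1 ± 1.18 FPKM in running, CUS and control, with no running value above a control value (log2 difference -0.21, limma adjusted p = 0.455).

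Of the 8 Frizzled receptors that passed the filter, 5 were above 0 and 3 below in running against CUS, with a median log2 difference of 0.04. Fzd4, a Frizzled of brain endothelium, had 1.63, 2.25 and 2.09 FPKM in running, 1.29, 1.41 and 0.72 under CUS and 1.83, 1.29 and 1.81 in controls. Every running value exceeded every CUS value (log2 difference 0.62, SE 0.181, limma adjusted p = 0.0978). Among 6 coreceptors, Reck, which presents Wnt7a and Wnt7b to Frizzled, had 2.86, 3.13 and 2.73 FPKM in running, 3.69, 3.16 and 3.11 under CUS and 3.91, 3.97 and 3.85 in controls. All running and CUS values of Reck were below all control values, with a log2 difference of running from control of -0.37 (SE 0.0869, limma adjusted p = 0.167) that was called with library quality weights (-0.40, limma adjusted p = 0.0435), where 147 of 14013 genes were called. Endothelial markers, 6 of 6 above 0 in all libraries, summed to 84.6 to 105.4 FPKM in running, 89.0 to 104.4 under CUS and 102.8 to 116.3 in controls, and their part in the values of Fzd4 and Reck was not tested. Among the R-spondins, which amplify Wnt signals, and their Lgr receptors, Rspo2 had the highest mean at 10.8 FPKM. Lgr5 had 0.61, 0.54 and 0.50 FPKM in running, 0.31, 0.32 and 0.33 under CUS and 0.27, 0.34 and 0.34 in controls (log2 difference from CUS 0.36, limma adjusted p = 0.121). It passed the filter on low values only through its running libraries, the group where it was high. Nothing is therefore read from its difference or its p-value.

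The list of secreted inhibitors had 7 genes past the filter, among them Kremen1, which is not secreted. Dkk3, a member of the Dickkopf family, was the most abundant of the 7, with a mean of 187 FPKM. Its log2 difference between running and CUS was -0.04 (limma adjusted p = 0.795), and inhibition of Wnt signals was not measured. Frzb, a soluble Frizzled-like binder of Wnt proteins, had 4.69, 4.06 and 5.48 FPKM in running, 2.99, 2.17 and 4.18 under CUS and 4.37, 4.34 and 4.17 in controls (log2 difference from CUS 0.57, SE 0.173, limma adjusted p = 0.103). CUS replicate 3 was the CUS library that overlapped with running. In the beta-catenin core, 9 of 16 genes were above 0 and 7 below in running against CUS. Apc, a scaffold of the complex that degrades beta-catenin, had 27.7 ± 1.57 FPKM in running, 22.9 ± 2.58 under CUS and 28.3 ± 1.30 in controls, with a log2 difference of running from CUS of 0.28 (limma adjusted p = 0.101). Ctnnb1, which encodes beta-catenin, had 117.18, 120.20 and 114.81 FPKM in running, 126.23, 123.86 and 131.05 under CUS and 113.24, 117.57 and 111.23 in controls. On the deposited FPKM scale all CUS values of Ctnnb1 were above all others (log2 difference of CUS from control 0.16, limma adjusted p = 0.267). The summed FPKM of all genes was also higher in every CUS library than in every running library. Whether the separation of Ctnnb1 holds after rescaling to TPM was not examined. After removal of a trend with GC content and transcript length, the difference of Apc between running and CUS was 0.13.

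Of 12 feedback and target genes, 4 were above 0 and 8 below in running against CUS, and 6 above and 6 below in CUS against control. In CUS against control none of the 12 had an unadjusted p under 0.05. Axin2, a feedback inhibitor widely used as a readout of beta-catenin signalling, had 9.17 ± 0.406 FPKM in running, 8.99 ± 0.693 under CUS and 8.73 ± 0.613 in controls. It was named as the textbook target, outside the rule for the other genes, after its values were seen. Ccnd1, cyclin D1, had 16.79, 17.29 and 19.26 FPKM in running, 12.13, 12.26 and 13.69 under CUS and 15.29, 14.37 and 12.66 in controls. Every running value of Ccnd1 exceeded all others (log2 difference from CUS 0.47, SE 0.0843, limma adjusted p = 0.0776). In the planar polarity branch, 9 of 9 genes were above 0 in running against CUS, with a median of 0.13 where that of all genes was -0.03. With the length and GC trend removed 5 of 9 were above 0 and the median was 0.04, and without CUS replicate 3 it was 0.04 as well. In running against control 6 were above 0 and 3 below, with a median of 0.04. In CUS against control 1 was above 0 and 8 were below, with a median of -0.11. Daam2, a formin of this branch, had 14.58, 16.84 and 16.59 FPKM in running, 11.58, 13.65 and 11.87 under CUS and 15.88, 14.64 and 18.60 in controls, a log2 difference of running from CUS of 0.36 (limma adjusted p = 0.0917). The difference was 0.21 with the length and GC trend removed. Prickle2 had 34.9 ± 1.01 FPKM in running, 29.6 ± 1.65 under CUS and 30.6 ± 1.73 in controls (log2 difference from CUS 0.23, limma adjusted p = 0.0892).

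**Figure D4:**
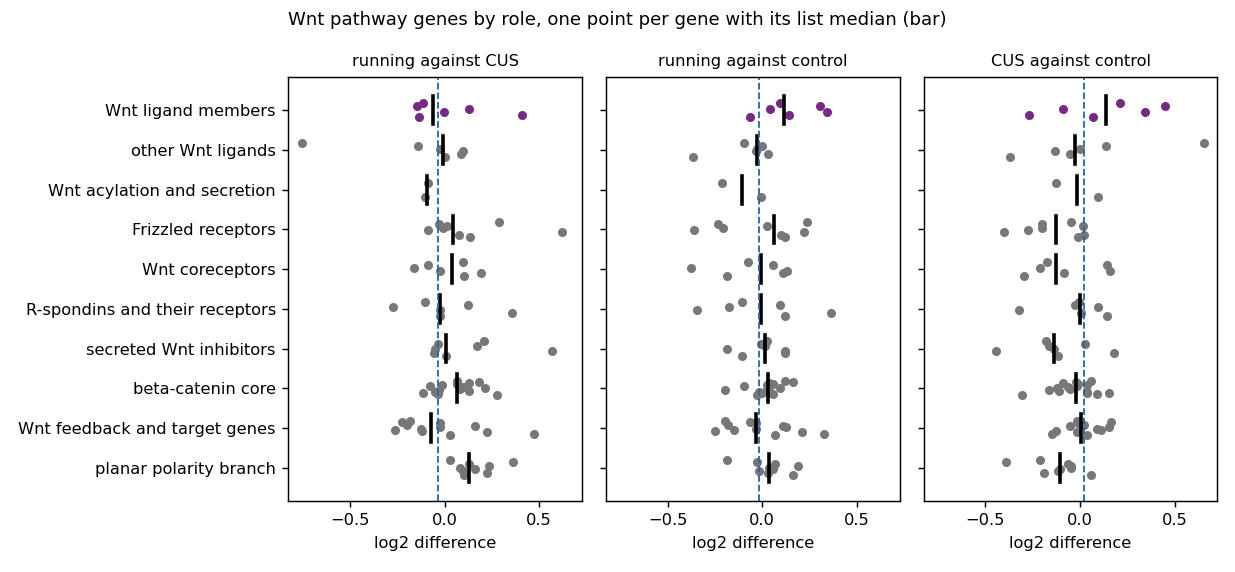
Log2 difference of each gene (points) that passed the filter, by role in the Wnt pathway, for running against CUS, running against control and CUS against control, with a bar at the median of each list and a dashed line at the median of all 14013 genes. The planar polarity genes lie to the right of 0 in running against CUS. The medians of all lists, that of planar polarity included, stay within 0.15 of 0 throughout.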

How the data were processed

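Gene expression was measured by RNA-seq of polyA RNA from the medial prefrontal cortex in 9 libraries. The authors deposited FPKM values with 2 decimals in 1 table of 65389 rows. The submitters' processing notes name the build mm10 and, without stating what each did, RSEM 1.2.12, Bowtie2 2.2.5 and DESeq2 1.4.5. The annotation is not given. Per the labels' protocols, nothing marks strand. Values were used as log2(FPKM + 0.5) for the 14013 genes that reached 0.5 FPKM in 3 or more libraries. Groups were compared with limma 3.58.1 in R 4.3.3, in 1 model of all 9 libraries with an intensity trend (6 residual degrees of freedom, prior median 4.71) and Benjamini-Hochberg adjustment over all 14013 genes. The code was tested on simulated data. An exact permutation test of 3 against 3 libraries cannot go below 0.1, so the adjusted values rest on variance shared across genes. The members, lists and tests were chosen with earlier results of these data known. Named were the members, of each list the 2 genes with the smallest unadjusted p in each comparison and the most abundant gene (a selection of these is printed), and the 3 genes most like each member, leaving out predicted, Riken and Y-linked genes. The genes most like Wnt9a are not reported here. Library replicate numbers follow the order of listing and pair nothing. Gene coordinates and promoters are from RefSeq on GRCm38.p6, the assembly behind mm10, and transcript lengths, GC content and exon overlaps from GENCODE M21 on GRCm38, which covered 98.2% of the genes tested. Alternatives were other pseudocounts, filters and scalings, fits of 2 groups, library quality weights, leaving out each library and, added after seeing the data, removal of a length and GC trend.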

Additional observations from a re-analysis of the deposited data

How the results depend on the processing

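No paired analysis was possible because the labels give the libraries no replicate numbers that groups share by design. Across the alternatives, the Wnt7a differences kept their sign, between 0.38 and 0.52 for CUS against control and between -0.22 and -0.07 for running against CUS. The first is the difference that chose Wnt7a, and the second shares its CUS libraries. Their stability in the same libraries is a description and lends the differences no support. Of the 5 members tested, none was called in running against control under any of the 18 alternatives, and in running against CUS 1 was, Wnt10a with library quality weights (0.51). With those weights 8 pathway genes were called in running against CUS and 1 in running against control, where 147 of 14013 genes were called, and leaving out 1 library gave between 0 and 4 for running against CUS. Signs turned for 4 differences, none of them called, and 1 of the 4, Wnt9a for CUS against control, was untested and was -0.09 without CUS replicate 1. Wnt4 for running against CUS was 0.024 with quantile normalization, 0.10 after rescaling to TPM and 0.20 with library quality weights, and between -0.13 and 0.15 when 1 library was left out. Wnt5a for running against control was -0.0032 with the length and GC trend removed and between -0.078 and 0.10 when 1 library was left out. Wnt9a for running against CUS was between -0.22 and 0.026 when 1 library was left out. The causes of the calls and of these sign changes were not tested. The whole table had 2178 calls in running against CUS with library quality weights, 1535 without CUS replicate 2 and 1 with all libraries at equal weight. The estimated 108 to 197 fragments of Wnt7a per library limit its precision to 7.1 to 9.6% from counting alone.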
